A study of Mus musculus with 8 samples.

Results

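Endothelial cells that carried transcripts of Vwf, Cytl1 or Bmx were described in the ascending thoracic aorta of young mice. They are cell barcodes with at least 500 genes, at most 20% mitochondrial UMIs and under 5% haemoglobin UMIs, a UMI (unique molecular identifier) being 1 counted transcript. They also held at least 2 UMIs of Vwf, Cytl1 and Bmx together, at least 2 of Pecam1, Cdh5 and Eng together, at most 1 of the capillary genes Gpihbp1, Cd300lg and Btnl9, and under 1% of UMIs from the smooth muscle genes Acta2, Tagln and Myh11. Of 48467 barcodes, 153 met this rule. They were compared with 619 capillary-rule endothelial barcodes, which passed the same filters, endothelial minimum and smooth muscle limit with at least 3 UMIs of Gpihbp1, Cd300lg and Btnl9. Both sets were chosen from their counts of these 12 genes, so those genes are described below and not tested.

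The tissue came from 3 wild-type mice of 11, 12 and 13 weeks, all called young, with no other genotype or treatment in the series. Each age carried its own hashtag, an antibody against common cell-surface proteins with a DNA barcode attached, and each hashtag was read as 1 animal (hashtags 1, 2 and 3 at 11, 12 and 13 weeks). Aortas were dissociated with type II collagenase (10 mg/mL) and elastase (1 mg/mL), strained at 70 µm and depleted of dead cells, and the cells of all animals were captured in droplets and sequenced from the 3′ end. With 1 animal per age, ages were not compared. The barcodes that assigned a cell to its animal were the following, each with the animal's age.
Hashtag 1 (11 weeks): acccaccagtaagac
Hashtag 2 (12 weeks): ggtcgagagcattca
Hashtag 3 (13 weeks): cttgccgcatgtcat

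The inner surface of the aorta is a single layer of endothelium that faces fast, pulsatile flow, while the capillaries of the vessel wall and of the fat around it exchange fatty acids and gases with the tissue. Von Willebrand factor, the product of Vwf, is stored with P-selectin in Weibel-Palade bodies, granules of endothelium that are released on injury. It binds platelets to exposed collagen and carries coagulation factor VIII. Bmx encodes a non-receptor tyrosine kinase known in arterial and endocardial endothelium, and Cytl1 a small secreted protein. Gpihbp1, by contrast, holds lipoprotein lipase at the capillary wall.

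The 153 members held 855748 gene UMIs. The median member had 4495 UMIs from 1852 genes, and the median capillary-rule barcode 2559 UMIs from 1210 genes. Median mitochondrial shares were 10.9% and 13.8%. A single hashtag was assigned to 94 members, 24 carried several and 35 none. The summed libraries of the members held 144356, 177881 and 214556 gene UMIs in hashtags 1, 2 and 3, and those of the capillary-rule barcodes 570554, 414148 and 541398. The hashtag 2 sum of the members includes barcodes of 30267 and 28924 gene UMIs, and the hashtag 3 sum barcodes of 20675 and 19148. Such deep barcodes weigh more than others in every CPM of those sums, above all in hashtag 2. A hashtag was missing in 22.9% of members (95% exact binomial interval 16.5 to 30.4), in 2.91% of capillary-rule barcodes, and in 69.1% and 71.1% of the smooth muscle and fibroblast barcodes used as reference classes.

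Vwf, Bmx and Cytl1 separated the classes in every animal, as the choice required. Vwf stood at 1090.0, 805 and 827 CPM (UMIs scaled to a common library total, with edgeR's TMM factors) in hashtags 1, 2 and 3, and at 47.2, 11.9 and 7.60 CPM in the capillary-rule sums. Bmx was at 321, 357 and 369.8 against 10.9, 2.38 and 5.70 CPM, and Cytl1 at 4025, 5066 and 4151 against 39.9, 28.6 and 62.7 CPM. Every member sum lay above every capillary-rule sum for all 3 genes. A Vwf UMI was found in 68.6% of members, in 3.39% of capillary-rule barcodes and in 1.51% of smooth muscle barcodes, whose median depth was 7287 UMIs (after thinning each barcode to 1000 UMIs, 43.1%, 1.62% and 0.108%). Cytl1 was not restricted to endothelium, since 17.2% of the 1162 fibroblast barcodes had a UMI of it and 132 had at least 2, while 16 had a UMI of Vwf or Bmx.

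Pecam1, the platelet-endothelial adhesion molecule of cell junctions, was at 1717, 1903 and 2334 CPM in members and 865, 802 and 758 CPM in capillary-rule barcodes. Cdh5, the junctional cadherin of endothelium, ran the other way, at 306, 334 and 273 against 1268, 1368 and 1327 CPM. Eng, a TGF-beta co-receptor, was uneven between the animals, at 1204, 569 and 337 CPM in members and 542, 433 and 479 CPM in capillary-rule barcodes. Its groups overlapped. Gpihbp1, Cd300lg and Btnl9 were held to at most 1 UMI per member and summed to 2 UMIs each over the hashtag-assigned members, against 3587, 1200 and 875 in the capillary-rule barcodes. At the edges of the rule, 6 members held exactly 2 UMIs of Vwf, Cytl1 and Bmx, and 22 barcodes that met every other condition held 1. For Pecam1, Cdh5 and Eng, 23 members held exactly 2 UMIs and 64 further barcodes held 1. The smooth muscle limit removed 278 barcodes and the capillary limit 40.

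**Figure D1:**
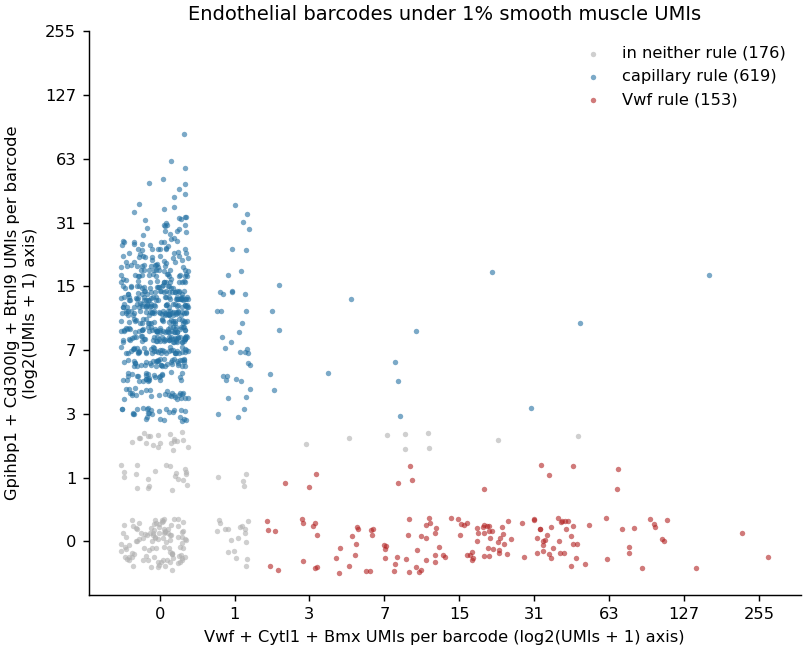
UMIs of Vwf, Cytl1 and Bmx per barcode against UMIs of Gpihbp1, Cd300lg and Btnl9, for the endothelial barcodes that met the filters and the smooth muscle limit; each point is 1 barcode. The 153 Vwf-rule and 619 capillary-rule barcodes lie along separate axes, and 176 barcodes met neither rule; 15 capillary-rule barcodes held at least 2 UMIs of the Vwf group.

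The members were not uniform in the genes of the rule, which describe them and do not test the label of large-vessel endothelium. A UMI of Vwf or Bmx was present in 113 of 153 members (72 with both), and 40 entered on Cytl1 alone. At least 2 UMIs of Pecam1 and Cdh5 together were found in 125, and 16 had none of either gene. Both conditions together were met by 108 members, called strict members here, a division made after the data were seen. Of the other 45, 36 held at most 3 UMIs of 15 endothelial genes outside the rule, as did 1126 of 1162 fibroblast barcodes, 5 of 619 capillary-rule barcodes and 3 of the 108 strict members. The 45 had a median of 67 UMIs of 9 fibroblast genes, against 3 in the strict members. Eng gave 93 of their 186 Pecam1, Cdh5 and Eng UMIs, against 21.2% in strict members. Cytl1 gave 98.3% of their Vwf, Cytl1 and Bmx UMIs, against 75.3%. Both shares follow largely from the division itself, which was made on Vwf, Bmx, Pecam1 and Cdh5, and are no separate evidence. A hashtag was missing in 22 of the 45 and in 13 of the 108. In the 45, fibroblast transcripts were thus many and endothelial ones few, and the counts of a gene list with strict members only are given where they differ from those of all members.

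A further division ran along Prox1, the transcription factor that specifies lymphatic endothelium and is also found in valve endothelium. It was detected in 16 members (10.5%, 95% exact binomial interval 6.10 to 16.4) and in 7 of 619 capillary-rule barcodes (1.13%). By animal, 10 of 32, 3 of 25 and 2 of 37 members of hashtags 1, 2 and 3 had it. Of other lymphatic genes, Ccl21a, Reln, Lyve1, Pdpn and Mmrn1 were found in 0 of the 16, which allows a share of up to 20.6% of barcodes with a UMI of each (exact binomial bound; it does not limit the share of cells that express the gene), and Flt4, the VEGF-C receptor, in 5. All 16 had UMIs of Emcn, Egfl7, Cgnl1 and Dcn. The Prox1 barcodes carried 1923 CPM of Eng, against 429 CPM in the other members. Their Dcn came with little collagen, at 437 Dcn UMIs to 1 of Col1a1 and 8 of Col3a1, so the first ratio rests on 1 UMI. Fibroblast barcodes had 15.1 Dcn UMIs per Col1a1 UMI and 5.98 per Col3a1 UMI. The strict members, which include Prox1 barcodes, had 33.4 and 13.2. The lymphatic list as a whole summed to 256, 118 and 65.3 CPM in the members of hashtags 1, 2 and 3. In the capillary-rule sums it was at 75.4, 1036 and 72.0 CPM, the high value being that of hashtag 2 alone. These values do not give the Prox1 barcodes a name, and the cause of their uneven spread over the animals was not tested.

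**Figure D2:**
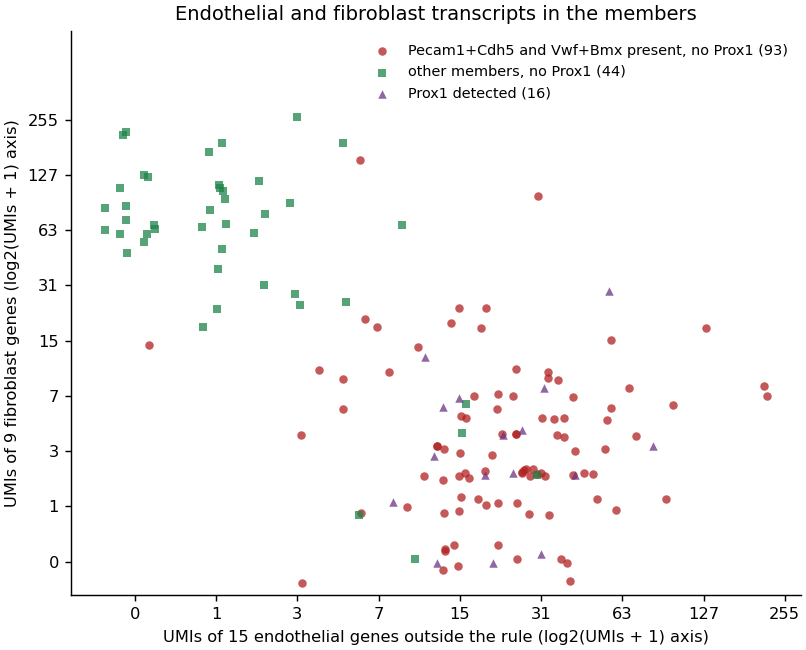
UMIs of 15 endothelial genes outside the rule against UMIs of 9 fibroblast genes in each of the 153 members. The 93 strict members without Prox1 and the 16 Prox1 barcodes lie mostly at high endothelial and low fibroblast counts, and the 44 other members without Prox1 mostly at the reverse.

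The members made up 0.626% (95% exact binomial interval 0.531 to 0.733) of the 24455 barcodes that passed the filters. Over barcodes with a single hashtag, they were 2.00%, 2.27% and 2.64% of the filtered barcodes of hashtags 1, 2 and 3 (mean 2.30% ± 0.319, SD, n = 3). Of the barcodes that met either endothelial rule they were 14.1%, 17.2% and 19.7% (mean 17.0% ± 2.80, SD, n = 3). The exact intervals of the 3 animals overlapped, from 9.85 to 19.3% in hashtag 1 to 14.3 to 26.1% in hashtag 3. A single hashtag was assigned to 61.4% of members and 75.3% of capillary-rule barcodes, but to 18.4% of smooth muscle and 18.3% of fibroblast barcodes. The shares among single-hashtag barcodes thus have a selected denominator and cannot be set beside the 0.626%. A droplet experiment cannot tell fewer cells in the vessel from fewer cells released by digestion.

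Members and capillary-rule barcodes were then compared gene by gene, on UMIs summed per hashtag and class, with edgeR's quasi-likelihood test, the hashtag as a block and Benjamini-Hochberg adjustment over all 6766 genes tested. At an adjusted p under 0.05, 869 genes were higher in the members (12.8%) and 829 lower (12.3%), 25.1% in either direction. The median log2 fold change over all genes was -0.0058. Genes outside the rule numbered 6754, of which 865 were higher and 822 lower. The counts of each gene list below are to be read beside these shares over all genes. The groups were selected as different kinds of endothelium, so their differing at many genes follows from the choice. The test sets the difference against the spread that remains after the hashtag block. That spread was estimated over the member, capillary-rule, smooth muscle and fibroblast sums of 3 animals, 1 of each age.

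Markers of other cells were measured in the same sums. The 10 fibroblast genes summed to 5605 to 7033 CPM, against 1345 to 3332 in capillary-rule and 29608 to 32391 in fibroblast barcodes, and to 3931 CPM over the strict members. The 7 smooth muscle genes outside the rule summed to 585 to 956 CPM (capillary-rule 1379.8 to 1719), the 10 macrophage genes to 11.2 to 27.7 CPM (capillary-rule 55.5 to 266), and the 6 adipocyte genes to 0 to 9.32 CPM (capillary-rule 80.6 to 216). The 8 lymphocyte genes were at 0 in the members and the 8 platelet genes at 4.66 to 62.3 CPM. In the comparison, 5 of the 10 fibroblast genes passed the test as higher and 0 as lower; with strict members only, 2 were higher and 2 lower. Dcn, which codes for the small proteoglycan decorin, was at 4032, 3594 and 4530.2 CPM in members against 1471, 719 and 371 CPM (log2 fold change 2.35, SE 0.21, adjusted p = 2.92e-10). Its call held with strict members.

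Among the genes with the largest rise in the members, Plagl1, an imprinted zinc finger gene, was at 192, 74.8 and 50.8 CPM and 0 UMIs in all 3 capillary-rule sums. It was at least 48.3-fold higher, taking 3 UMIs over the class as the floor (adjusted p = 5.22e-08), and at least 19.5-fold without hashtag 1. The bounds of the named genes at 0 UMIs fell with each library left out, and the values are given where they moved by more than 1.5 times. Nrg1, the neuregulin ligand of ERBB receptors, was at 71.2, 121 and 46.2 CPM and at least 38.9-fold higher (at least 25.2-fold without hashtag 1 and at least 20.7-fold without hashtag 2), though DESeq2 did not call it (adjusted p = 0.218; 2.04e-14 to 0.218 over the alternatives). Myrip, which couples myosin VIIa to RAB27A on secretory granules, was at 49.9, 34.5 and 92.5 CPM and at least 31.3-fold higher (at least 13.2-fold without hashtag 3). These 3 genes had no UMI in any capillary-rule sum. UMIs in each animal's members were required by their choice, which asked for 1 direction in all 3 animals.

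Others had a few capillary-rule UMIs. Adh7, an alcohol dehydrogenase active on retinol, was at 264, 219 and 277 CPM against 0, 0 and 3.80, 192-fold (95% counting interval 52.1 to 1601) higher, and 119-fold without hashtag 1 and at least 76.4-fold without hashtag 3. Isl1, a LIM-homeodomain transcription factor of the second heart field, was at 128, 144 and 111 CPM against 0, 0 and 3.80, 95.2-fold (95% counting interval 25.4 to 803) higher, and 59.7-fold without hashtag 1 and at least 43.8-fold without hashtag 3. Cd24a, a small glycosylated surface protein, was at 157, 201 and 194 CPM against 1.81, 2.38 and 1.90, 93.8-fold (95% counting interval 31.2 to 463) higher. All 3 were above the capillary-rule value in every animal, which the choice of these genes required. Enpp6, a choline-specific phosphodiesterase, stood at 142, 149.5 and 162 CPM against 3.63, 0 and 0, 115-fold (95% counting interval 30.9 to 967) higher, and at least 49.5-fold without hashtag 1 and 70.3-fold without hashtag 3. Lsr, the lipolysis-stimulated lipoprotein receptor of tricellular junctions, stood at 92.6, 80.5 and 27.7 CPM against 0, 2.38 and 0, 93.8-fold (95% counting interval 15.7 to 3817) higher, and 48.7-fold without hashtag 1 and at least 19.6-fold without hashtag 2. Ecrg4, which codes for a secreted peptide precursor, was at 299, 483 and 499 against 9.07, 4.76 and 0 CPM (log2 fold change 6.51, SE 0.42, adjusted p = 1.76e-13). Its log2 fold change was 7.71 without hashtag 1 and 5.74 without hashtag 3. Gkn3, a gastrokine that marks arterial endothelium in mice, was at 264, 288 and 365 against 7.26, 2.38 and 1.90 CPM (log2 fold change 6.19, SE 0.36, adjusted p = 7.84e-14; 7.14 without hashtag 1).

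The lowest fitted log2 fold changes were those of Cxcl9, Car4 and Aqp7. Cxcl9, an interferon-induced chemokine, was at 365, 414 and 1011 CPM in capillary-rule barcodes and had 0 UMIs in every member sum, at least 106-fold lower (at least 40.9-fold without hashtag 3). Car4, the membrane carbonic anhydrase of capillaries, was at 453, 447 and 490.3 CPM and at 0 in members, at least 81.6-fold lower (at least 47.8-fold without hashtag 3). Aqp7, a glycerol channel, was at 207, 238 and 224 CPM and at 0, at least 38.9-fold lower (at least 24.96-fold without hashtag 2 and at least 23.3-fold without hashtag 3). Rgcc, a regulator of cell cycle known as a capillary marker, was at 1081, 1247 and 1262 CPM against 0, 5.75 and 0, 628-fold (95% counting interval 112 to 24799) lower, and at least 136-fold without hashtag 2 and 367-fold without hashtag 3. A further 7 genes named by the same size rule had 0 UMIs in the members: Tbx3, a T-box transcription factor, Slc28a2, a nucleoside transporter, St8sia4, a polysialyltransferase, Gm12002, Tmem182, Ucp1, the uncoupling protein of brown fat, and Tspan15, a tetraspanin. Their bounds ranged from at least 12.0-fold lower for Tspan15 to at least 28.0-fold lower for Tbx3, and from 5.45-fold to 22.5-fold with each hashtag sample left out. Ucp1 is itself 1 of the 6 adipocyte genes summed above, so that sum is not separate from it. Only 2 of the 6 passed the filter, and the other, Plin4, was not called (adjusted p = 0.439). The part of fat cell transcripts in the Ucp1 difference was not tested.

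Of the given markers, Egfl7, a secreted factor of most endothelium, was at 862, 937 and 846 CPM in members and 1063, 956 and 1047 CPM in capillary-rule barcodes and was not called (log2 fold change -0.21, SE 0.14, adjusted p = 0.283). The pan-endothelial list outside the rule held 15 genes, of which 3 were higher and 6 lower (3 higher and 5 lower with strict members; median log2 fold change -0.15). Ptprb, the vascular endothelial phosphatase, was at 1282, 1507 and 1498 CPM in members and 1480.2, 1175 and 1397 CPM in capillary-rule barcodes, with groups that overlapped (log2 fold change 0.09 ± 0.13, SE). Clec14a, a C-type lectin of endothelium, was higher, at 271, 357 and 263 against 58.0, 69.0 and 45.6 CPM (log2 fold change 2.38, SE 0.21, adjusted p = 1.04e-10). Cldn5, the endothelial claudin of tight junctions, was lower, at 335, 201 and 180.3 against 1257, 1492 and 1642 CPM (log2 fold change -2.66, SE 0.18, adjusted p = 3.76e-13). S1pr1, a receptor for sphingosine 1-phosphate, fell by less, at 356, 408 and 361 against 847, 861 and 1117 CPM (log2 fold change -1.33 ± 0.14, SE; adjusted p = 1.07e-08).

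**Figure D3:**
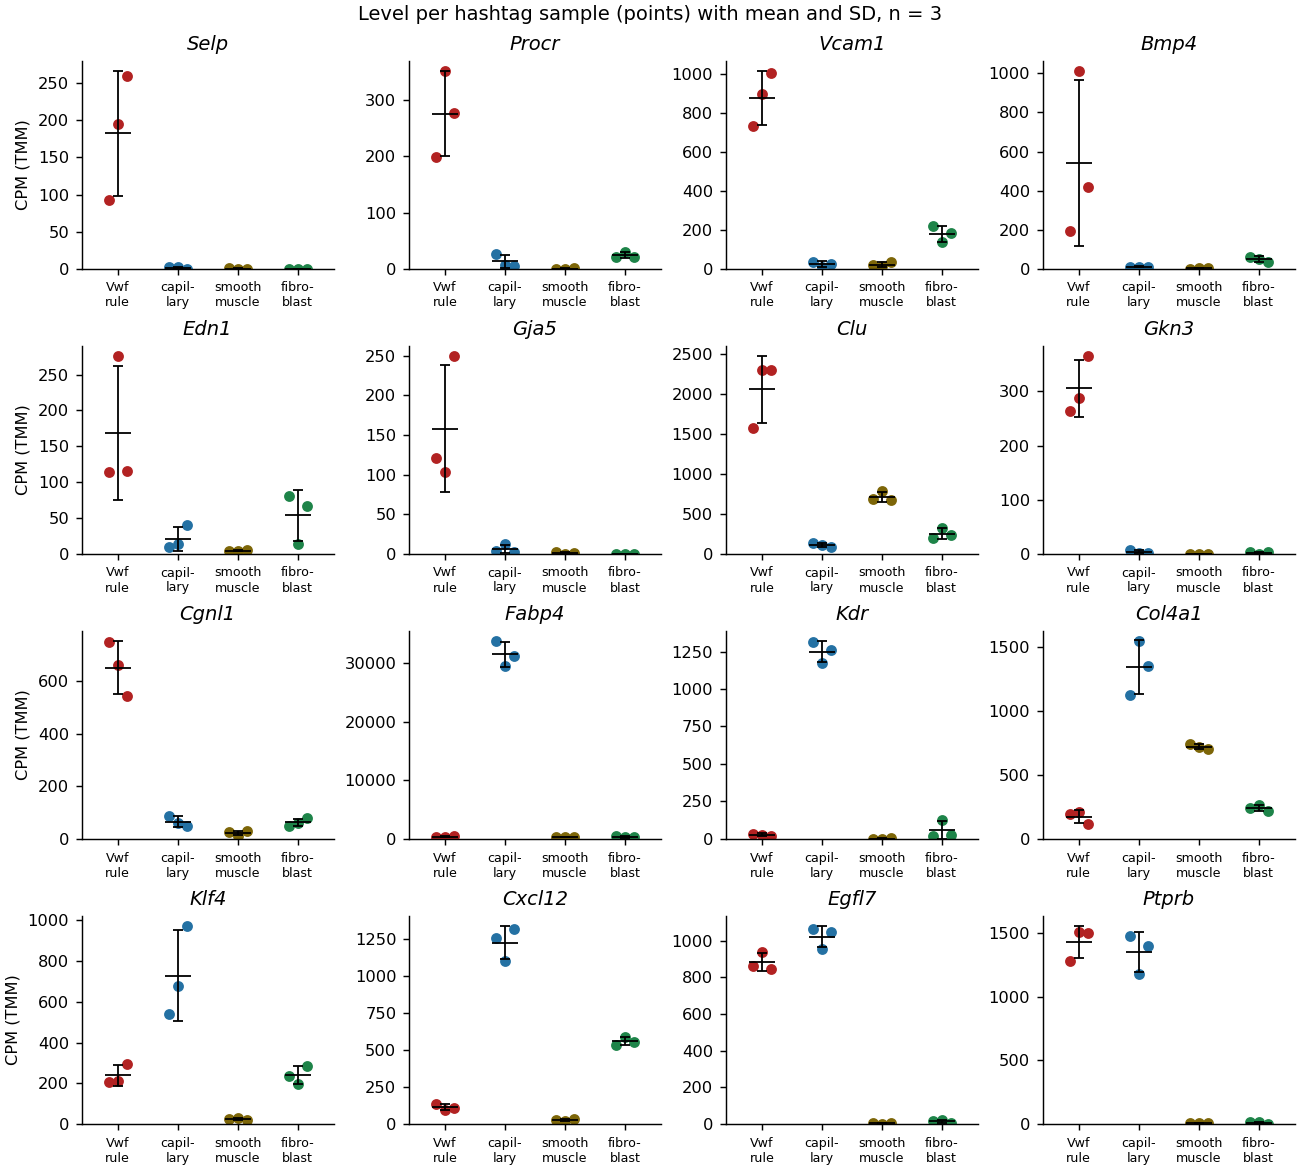
CPM, on a linear axis from 0 for each gene, of 16 genes in the Vwf-rule, capillary-rule, smooth muscle and fibroblast sums; points are the 3 hashtag samples and bars the mean ± SD. Selp, Vcam1, Bmp4, Gkn3 and Cgnl1 lie above the capillary-rule points in all 3 Vwf-rule sums, Fabp4, Kdr and Col4a1 below them, and Ptprb overlaps.

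The genes listed as large-vessel markers outside the rule were all higher, 9 of 9 with a median log2 fold change of 2.25, and 8 to 9 with each hashtag sample left out (7 of 9 when the capillary rule had no smooth muscle limit). The list was drawn up with earlier results of these data known, so its direction is not independent evidence. Vcam1, the leukocyte adhesion molecule that binds integrin alpha-4 beta-1, was at 734, 897 and 1008 CPM in members and 36.3, 9.52 and 26.6 CPM in capillary-rule barcodes (log2 fold change 5.14, SE 0.24, adjusted p = 1.46e-16). Clu, which codes for the secreted chaperone clusterin, was at 1567, 2300.3 and 2297 against 134, 109 and 79.8 CPM (log2 fold change 4.23, SE 0.17, adjusted p = 3.78e-18). Sulf1, a heparan sulfatase that trims extracellular sugar chains, was at 420.3, 472 and 518 against 52.6, 35.7 and 24.7 CPM (log2 fold change 3.62, SE 0.22, adjusted p = 4.99e-14). None of the 3 overlapped between members and capillary-rule barcodes. Other wall cells held them too. Fibroblast sums had 328, 524 and 388 CPM of Sulf1, within reach of the members, and 220, 136 and 183 CPM of Vcam1. Smooth muscle sums had 680, 787 and 676 CPM of Clu. The 9 genes together summed to 13938 to 15012 CPM in members and 19250 to 24015 CPM in fibroblast sums. The rest of the list includes matrix genes that fibroblasts or smooth muscle also express. Mgp, an inhibitor of calcification and of BMPs, was at 9269, 7838 and 7512 against 2084, 2527 and 1862 CPM (log2 fold change 1.93, SE 0.11, adjusted p = 1.21e-14). It stood at 22005, 16465 and 18391 CPM in the fibroblast class, at 6058 CPM over the strict members and at 34996 CPM over the 45 others. With strict members 8 of the 9 were called higher, with a list median of 2.33.

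The capillary list moved the other way, with 12 of 13 genes outside the rule lower, 0 higher and a median log2 fold change of -6.31 (-6.30 with the 2 genes at 0 UMIs set to their bounds). The comparison barcodes were chosen on capillary genes, and this list too was drawn up with earlier results known. Its direction is therefore not independent evidence. Fabp4, the fatty acid binding protein of capillaries and fat cells, was at 399, 351 and 476 CPM in members and 33770.5, 29434 and 31202 CPM in capillary-rule barcodes (log2 fold change -6.25, SE 0.16, adjusted p = 3.57e-23). Cd36, the fatty acid translocase, was at 49.9, 34.5 and 13.9 against 3646, 2969 and 3542 CPM (log2 fold change -6.78, SE 0.23, adjusted p = 5.86e-20). The Fabp4 level in members lay near that of smooth muscle sums, at 327, 320.4 and 350.3 CPM. Tcf15, a partner of the Meox2 factor in the control of endothelial fatty acid uptake, had 2 UMIs over the members and 879 in the capillary-rule barcodes, 155-fold (95% counting interval 42.7 to 1279) lower. Aqp1, the water channel, fell by less, at 392, 518 and 508 against 1484, 1596 and 1602 CPM (log2 fold change -1.73, SE 0.15, adjusted p = 8.15e-11). Fabp5, the remaining member, was at 1069, 299 and 573 against 1023, 838 and 697 CPM and did not pass the test (adjusted p = 0.079).

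Arterial genes did not move as a group. Of 18, 5 were higher and 8 lower, with a median log2 fold change of -0.43. Summed levels were close, at 3109 to 3477 CPM in members and 3508 to 3574 in capillary-rule barcodes. Over the strict members the sum was 3544 CPM, inside the capillary-rule range. The higher genes included the gap junction proteins of arteries. Gja5, connexin 40, was at 121, 104 and 249.6 CPM against 3.63, 11.9 and 1.90 (log2 fold change 4.82, SE 0.49, adjusted p = 7.51e-09; 5.92 without hashtag 2 and 3.89 without hashtag 3). Gja4, connexin 37, was at 142, 161 and 92.5 CPM against 1.81, 11.9 and 1.90 (log2 fold change 4.75, SE 0.49, adjusted p = 1.01e-08; 5.85 without hashtag 2). Both connexins were above the capillary-rule range in every animal. Ltbp4, a binding protein of latent TGF-beta in elastic fibres, was at 919, 1133 and 1308 against 325, 343 and 262 CPM (log2 fold change 1.86, SE 0.14, adjusted p = 6.54e-12), with 484, 581 and 494 CPM in smooth muscle sums.

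The lower arterial genes included a chemokine, Notch ligands and a guidance cue. Cxcl12, the chemokine ligand of CXCR4, was at 135, 97.8 and 106 CPM in members and 1261, 1102 and 1321 CPM in capillary-rule barcodes (log2 fold change -3.46, SE 0.17, adjusted p = 5.59e-16). Dll4, a Notch ligand of arterial and tip cells, was at 7.12, 5.75 and 9.25 against 72.6, 78.5 and 85.5 CPM (log2 fold change -3.37, SE 0.54, adjusted p = 1.43e-05). Sema3g, a secreted semaphorin, was at 28.5, 11.5 and 4.62 against 129, 136 and 144 CPM (log2 fold change -3.34, SE 0.42, adjusted p = 4.5e-07; -4.16 without hashtag 1). Jag2, another Notch ligand, had 2 UMIs in members and 103 in capillary-rule barcodes, 18.1-fold (95% counting interval 4.89 to 152) lower, and at least 6.44-fold without hashtag 3. Jag1, by contrast, was higher at 64.1, 86.3 and 74.0 against 29.0, 11.9 and 13.3 CPM (log2 fold change 1.99, SE 0.39, adjusted p = 0.000183; 2.62 without hashtag 1), and lost its call with barcodes limited to at most 10% mitochondrial UMIs and after thinning to 2000 UMIs. Notch1, the receptor, was at 249, 201 and 194 CPM in members and 310.2, 281 and 266 CPM in capillary-rule barcodes and was not called (adjusted p = 0.0772).

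Of the venous list, 7 of 8 genes passed the filter on low counts, 2 higher and 3 lower. Plvap, the diaphragm protein of fenestrae and transcytotic vesicles, was at 135, 219 and 254 CPM against 30.8, 38.1 and 9.50 (log2 fold change 3.03, SE 0.30, adjusted p = 2.67e-09; 2.36 without hashtag 3). Nrp2, a co-receptor for VEGF-C and semaphorins, had 3 UMIs over the members, at 14.2, 5.75 and 0 CPM, against 250.3, 431 and 363 CPM, 59.8-fold (95% counting interval 20.3 to 291) lower, and 153-fold without hashtag 1 and 34.8-fold without hashtag 3. Nr2f2, the transcription factor that specifies veins, was at 64.1, 34.5 and 18.5 CPM in members and 54.4, 105 and 20.9 CPM in capillary-rule barcodes and was not called. The higher genes were thus Selp, described next, and Plvap, and the defining factor Nr2f2 overlapped between the classes.

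Genes of haemostasis outside the rule were higher in 5 of the 11 that passed the filter and lower in 0 (4 to 5 and 0 to 1 with each hashtag sample left out; 4 higher and 0 lower with strict members; median log2 fold change 0.66). Selp, P-selectin, which tethers platelets and leukocytes, was at 92.6, 196 and 259 CPM in members and 1.81, 2.38 and 0 CPM in capillary-rule barcodes. With 103 UMIs in members and 2 in the capillary-rule barcodes it was 146-fold (95% counting interval 39.5 to 1225) higher (adjusted p = 6.99e-11; 71.8-fold without hashtag 3), and it was detected in 9 of 32, 10 of 25 and 20 of 37 members of the 3 animals. Procr, the endothelial protein C receptor, was at 199, 351 and 277 against 27.2, 7.14 and 5.70 CPM (log2 fold change 4.28, SE 0.33, adjusted p = 8.82e-12; 5.56 without hashtag 1). Thbd, thrombomodulin, which turns thrombin towards protein C, was at 221, 149.5 and 180.3 against 83.4, 95.2 and 89.3 CPM (log2 fold change 1.02, SE 0.21, adjusted p = 0.000395), a call lost in 3 alternatives that kept fewer barcodes. All 3 capillary-rule values lay below the members for each of these genes. Selp is among the genes named by size, whose choice required 1 direction in all 3 animals. Mmrn2, a matrix protein of endothelium, was at 256, 362 and 351 against 181, 181 and 171 CPM (log2 fold change 0.87, SE 0.18, adjusted p = 0.000415). Tfpi, the tissue factor pathway inhibitor, was at 121, 34.5 and 27.7 against 18.1, 45.2 and 7.60 CPM (adjusted p = 0.0391) and was not called without hashtag 1 or without hashtag 3 (adjusted p = 0.745 and 0.11; 0.00457 to 0.774 over all alternatives). The clot-lysing enzyme gene Plat and the thrombin-pathway cofactor Pros1 were not called (adjusted p = 0.145 and 0.0718).

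Promoter sequence was read for Selp, the haemostasis gene with the largest rise, and for Gja5, the arterial one, because ETS-family factors such as ERG act in endothelium through the core GGAA. The 250 bases before each gene's start, from RefSeq on GRCm38.p6, are written 5′ to 3′ on the gene's strand, with GGAA and its reverse complement TTCC in capitals.
Selp (chr1:164115014-164115263, plus strand): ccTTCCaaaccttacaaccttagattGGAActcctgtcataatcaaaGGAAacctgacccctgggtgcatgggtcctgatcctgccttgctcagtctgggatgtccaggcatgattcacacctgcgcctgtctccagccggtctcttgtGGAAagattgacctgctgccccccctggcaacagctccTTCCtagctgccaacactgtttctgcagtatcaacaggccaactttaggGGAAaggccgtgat
Gja5 (chr3:97032152-97032401, plus strand): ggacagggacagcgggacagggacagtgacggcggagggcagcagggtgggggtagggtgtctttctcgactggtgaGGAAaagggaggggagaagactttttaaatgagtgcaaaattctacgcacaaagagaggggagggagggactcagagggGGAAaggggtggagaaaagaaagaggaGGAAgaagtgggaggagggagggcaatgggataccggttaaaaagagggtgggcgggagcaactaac
Selp held 6 matches on either strand and Gja5 3. Among the rule genes, Cytl1 held 5 and Bmx 3. Of 32851 promoters of this length, 93.4% held at least 1 match, with a median of 3, 8.69% held as many as Selp, 18.0% as many as Cytl1 and 54.7% as many as Gja5 and Bmx. A match is a run of letters and was not tested as a binding site.

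Of the leukocyte adhesion genes, 4 of 11 were higher and 3 lower (5 higher and 3 lower with strict members; median log2 fold change 0.21). Besides Vcam1 and Selp, Cd9, a tetraspanin that clusters adhesion molecules, was at 862, 822 and 726 against 274, 288 and 209 CPM (log2 fold change 1.64, SE 0.14, adjusted p = 7.98e-11). Icam1, a ligand of leukocyte beta-2 integrins, was at 92.6, 115 and 106 against 32.7, 30.9 and 58.9 CPM (log2 fold change 1.34, SE 0.33, adjusted p = 0.00262; adjusted p = 0.0611 without hashtag 2, 7.6e-06 to 0.534 over all alternatives). Junctional adhesion molecules fell, with Jam2 at 207, 144 and 194 against 444, 409 and 473 CPM (log2 fold change -1.29, SE 0.20, adjusted p = 8.5e-06) and F11r at 71.2, 80.5 and 102 against 214, 181 and 192 CPM (log2 fold change -1.18, SE 0.23, adjusted p = 0.0002), the latter not called in members without a UMI of 6 genes of the fibroblast list. Sele and Ackr1 did not pass the filter. Icam2, an adhesion molecule of resting endothelium, and Cd34, a sialomucin, were not called (adjusted p = 0.0758 and 0.422).

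Genes tied to flow and vessel tone divided, with 8 of 18 higher and 7 lower (9 higher and 7 lower with strict members; median log2 fold change 0.52). On the higher side were enzymes and ligands of vessel tone. Edn1, the vasoconstrictor endothelin-1, was at 114, 276 and 116 CPM against 9.07, 14.3 and 39.9 (log2 fold change 2.95, SE 0.44, adjusted p = 3.22e-06; 2.20 without hashtag 2 and 4.09 without hashtag 3), and 32 of its 48 UMIs in hashtag 2 came from 1 barcode. Ece1, which processes endothelin, was at 848, 604 and 527 against 279, 281 and 253 CPM (log2 fold change 1.26, SE 0.14, adjusted p = 2.85e-08). Ace, the angiotensin-converting enzyme, was at 235, 288 and 282 against 38.1, 30.9 and 22.8 CPM (log2 fold change 3.16, SE 0.24, adjusted p = 8.82e-12). Ptgs1, cyclooxygenase 1, was at 199, 196 and 153 against 27.2, 2.38 and 17.1 CPM (log2 fold change 3.46, SE 0.34, adjusted p = 1.65e-09). None of these 4 genes overlapped between members and capillary-rule barcodes. Heg1, a receptor of endothelial junctions, was also higher (584, 592 and 698 against 219, 148 and 198 CPM).

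Flow-responsive transcription factors and caveolar genes were on the lower side. Klf2 was at 677, 541 and 799.7 CPM in members against 1083, 1268 and 1422 CPM (log2 fold change -0.90, SE 0.15, adjusted p = 3.22e-05), a call lost with barcodes limited to at most 10% mitochondrial UMIs. Klf4 was at 207, 213 and 296 against 539, 676 and 973 CPM (log2 fold change -1.59, SE 0.17, adjusted p = 1.42e-08). Both factors are also induced during tissue digestion, and hashtag 3 had the highest capillary-rule value of each. Cav1, caveolin 1, was at 819, 1047 and 684 against 1937, 1915 and 2068 CPM (log2 fold change -1.23, SE 0.13, adjusted p = 1.07e-08), and Cavin1, its coat partner, had a log2 fold change of -1.36 ± 0.15 (SE). Ednrb, the endothelin B receptor, was at 14.2, 11.5 and 0 against 163, 233 and 232 CPM (log2 fold change -4.77, SE 0.43, adjusted p = 2.37e-10; -5.44 without hashtag 1 and -3.96 without hashtag 3). Nos3, endothelial nitric oxide synthase, was at 114, 69.0 and 120.2 against 59.9, 71.4 and 53.2 CPM and did not pass the test (adjusted p = 0.0682).

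Genes listed as responses to dissociation were lower in 9 of 14 and higher in 0 (median log2 fold change -1.14). Without hashtag 3 the count was 4, and 3 with edgeR's robust estimate of spread. Their summed level was 1857 to 2107 CPM in members, against 2979.6, 3170.4 and 6324 CPM in the capillary-rule sums of hashtags 1, 2 and 3. The heat shock gene Hspa1a, at 143, 69.0 and 697 CPM in those sums and 21.4, 40.3 and 37.0 CPM in members, shows the high value of hashtag 3. Jun and Dusp1, immediate early genes, kept their calls in every alternative (Jun 335, 374 and 300.5 against 649, 826 and 1135 CPM, log2 fold change -1.37 ± 0.17, SE). Whether digestion had a part in the Klf2 and Klf4 differences was not tested.

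In the TGF-beta and BMP list, 10 of 15 genes outside the rule were higher and 3 lower (8, 6 and 8 higher without hashtags 1, 2 and 3; 9 higher and 3 lower with strict members; median log2 fold change 0.72). Among ligands, Bmp4 was at 192, 1012 and 416 CPM against 10.9, 7.14 and 11.4 (log2 fold change 5.59, SE 0.34, adjusted p = 5.26e-14). Hashtag 2 had the highest value, and 96 of its 176 Bmp4 UMIs came from 1 barcode. The log2 fold change was 4.73 without hashtag 2. Bmp6, another BMP ligand, was at 342, 334 and 287 against 111, 128 and 143 CPM (log2 fold change 1.32, SE 0.21, adjusted p = 1.18e-05). Tgfb1, the TGF-beta ligand, fell, at 28.5, 40.3 and 46.2 against 105, 105 and 85.5 CPM (log2 fold change -1.32, SE 0.30, adjusted p = 0.00109). Among receptors, Tgfbr2 had 256, 167 and 203 against 143, 128 and 114 CPM (log2 fold change 0.68, SE 0.20, adjusted p = 0.0103) and was not called without hashtag 1 or without hashtag 3 (adjusted p = 0.0848 in both; 0.000161 to 0.232 over all alternatives). The inhibitors of differentiation, targets of BMP signals, split. Id2 was higher at 363, 403 and 143 against 79.8, 47.6 and 64.6 CPM (log2 fold change 2.16, SE 0.26, adjusted p = 1.02e-07), Id1 lower at 356, 196 and 231 against 686, 759 and 842 CPM (log2 fold change -1.58, SE 0.20, adjusted p = 2.06e-07), and Id3, at 1161, 1012 and 698 CPM in members and 887, 878 and 891 CPM in capillary-rule barcodes, was not called. Cgnl1, a junctional protein also listed for endocardium and valves, was at 748, 661 and 545 against 87.1, 61.9 and 47.5 CPM (log2 fold change 3.31, SE 0.21, adjusted p = 7.84e-14).

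Of the endocardial and valve genes, 5 of 6 passed the filter, 3 were higher and 0 lower, and with strict members 1 was higher. That gene was Cgnl1. Npr3, the natriuretic peptide clearance receptor of endocardium, was at 135, 40.3 and 41.6 CPM in members and 58.0, 54.7 and 70.3 CPM in capillary-rule barcodes and was not called (adjusted p = 0.841). Nfatc1, the transcription factor of endocardium and valve, was at 14.2, 40.3 and 18.5 CPM in members and 36.3, 26.2 and 28.5 CPM in capillary-rule barcodes, also not called. Npr3 was detected in 8 of the 16 Prox1 barcodes. This count is given without the share in other barcodes or the other genes of the list, and so does not set the Prox1 barcodes apart.

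Of the VEGF, angiopoietin and apelin genes, 6 of 10 were lower and 1 higher (median log2 fold change -2.82, and -2.51 with the gene at 0 UMIs set to its bound). Kdr, the main VEGF receptor, was at 35.6, 28.8 and 18.5 CPM in members and 1313, 1175 and 1262 CPM in capillary-rule barcodes (log2 fold change -5.56, SE 0.33, adjusted p = 2.87e-14). Flt1, the decoy VEGF receptor, was at 192, 74.8 and 87.8 against 1654, 1479.9 and 1649.6 CPM (log2 fold change -3.83, SE 0.19, adjusted p = 4.7e-16). Aplnr, the apelin receptor, had 0 UMIs in members and 57 in capillary-rule barcodes, at least 6.68-fold lower (at least 4.09-fold without hashtag 2). Tek, the angiopoietin receptor TIE2, was the higher gene, at 299, 305 and 291 against 149, 183 and 196 CPM (log2 fold change 0.76, SE 0.18, adjusted p = 0.00139), and its partner Tie1 was at 142, 178 and 166 CPM in members and 156, 212 and 175 CPM in capillary-rule barcodes, not called. The call of Tek was lost in 4 alternatives, none of them the loss of an animal.

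Vessel matrix genes split evenly, 8 of 23 higher and 8 lower (7 higher and 9 lower with strict members). The median log2 fold change was -0.37. Of the higher genes, Eln, Fbln5, Mgp, Bgn, Ecm1 and Sulf1 also stand in the large-vessel list and are counted in both. Other lists share genes too, Selp and Ltbp4 among them, so the list counts are not independent of each other. Among the higher genes, Eln, elastin, was at 328, 845 and 804 CPM against 171, 143 and 106 (log2 fold change 2.25, SE 0.22, adjusted p = 1.72e-09), and Fbln5, which assembles elastic fibres, at 335, 742 and 596 against 151, 148 and 106 CPM (log2 fold change 2.06, SE 0.20, adjusted p = 8.67e-10). Fn1, fibronectin, was at 392, 414 and 337 against 139.7, 54.7 and 81.7 CPM (log2 fold change 2.06, SE 0.20, adjusted p = 1.65e-09). Hashtag 1 had the lowest member value of Eln and Fbln5, and neither overlapped between members and capillary-rule barcodes. Fibroblast sums held 566, 432 and 537 CPM of Eln and 653, 561 and 601 CPM of Fbln5. Fbln5 stood at 492, 564 and 564 CPM in smooth muscle sums. Smooth muscle sums held 1336, 1369 and 1381 CPM of Eln, and Eln lost its call when the capillary rule had no smooth muscle limit; the part of smooth muscle transcripts was not tested. Among the lower genes, Col4a1, a type IV collagen chain of basement membrane, was at 192, 213 and 116 against 1125, 1547 and 1357 CPM (log2 fold change -2.98, SE 0.17, adjusted p = 1.16e-14), Col4a2 had a log2 fold change of -3.20 ± 0.21 (SE), and Nid1, nidogen 1, was at 57.0, 57.5 and 74.0 against 223, 209 and 188 CPM (log2 fold change -1.70, SE 0.24, adjusted p = 1.3e-06). Sparcl1, a matricellular protein, was at 64.1, 57.5 and 60.1 against 1475, 1425 and 1437 CPM (log2 fold change -4.58, SE 0.18, adjusted p = 1.03e-18).

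Of the interferon and antigen presentation genes, 3 of 16 were higher and 8 lower (median log2 fold change -0.61). Over all genes tested, 12.8% were higher and 12.3% lower, so the count of higher genes is near that share. Ly6c1, a surface antigen of capillary endothelium, was at 142, 86.3 and 106 against 1504, 1423 and 1669 CPM (log2 fold change -3.81, SE 0.18, adjusted p = 8.95e-17). Bst2, tetherin, was at 249, 305 and 388 against 704, 918 and 794 CPM (log2 fold change -1.33, SE 0.15, adjusted p = 2.04e-08), and B2m, the light chain of MHC class I, at 1211, 1656 and 1798 against 2404, 2703 and 2727 CPM (log2 fold change -0.75, SE 0.11, adjusted p = 4.99e-06). The class I heavy chain H2-K1 was at 969, 1673 and 1872 CPM in members and 1190.0, 1566 and 1539 CPM in capillary-rule barcodes and was not called. The higher genes were of MHC class II, which antigen-presenting cells use. H2-Ab1, among them, lost its call in 7 of the 21 alternatives that tested it. H2-Aa was at 42.7, 104 and 125 against 14.5, 14.3 and 15.2 CPM (log2 fold change 2.62, SE 0.44, adjusted p = 2.4e-05), and Cd74, the invariant chain, at 49.9, 219 and 268 against 14.5, 54.7 and 24.7 CPM (log2 fold change 2.59, SE 0.40, adjusted p = 7.99e-06). The call of Cd74 was lost when every barcode took its highest hashtag and in members without a UMI of 6 fibroblast-list genes. Cd74 UMIs were found in 5, 10 and 14 members of hashtags 1, 2 and 3. Macrophages also express class II; their 10 listed genes summed to 11.2 to 27.7 CPM in members and 55.5 to 266 CPM in capillary-rule barcodes, and their part in this difference was not tested.

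**Figure D4:**
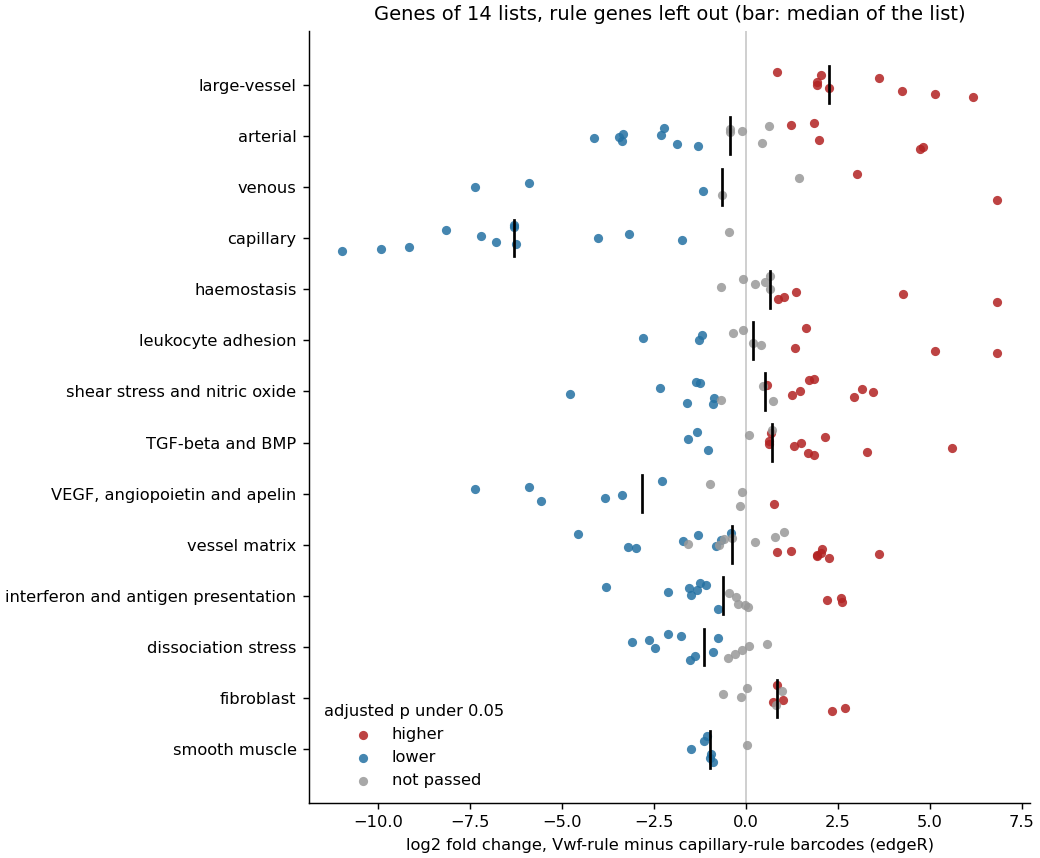
Log2 fold change of members over capillary-rule barcodes for every gene of 14 lists that passed the filter and lies outside the rule, with the list's median as a bar. The large-vessel genes all lie above 0 and the capillary genes below, while arterial, flow, matrix and adhesion genes lie on both sides.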

How the data were processed

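Values are raw UMI counts of genes and hashtags as the authors deposited them, per the file headers with Cell Ranger 6.0.1. The submitters' processing notes name mm10 and Seurat 4.0.5, and no source used here gives the annotation. The 4 gene expression and 4 hashtag libraries stand in 1 matrix with 0 repeated barcodes and 1 suffix, which leaves the library of a barcode unknown.

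The members and gene lists were chosen with earlier results of these data known. HTODemux (Seurat 5.3.0, R 4.3.3; centred log ratio per hashtag, quantile 0.99) assigned hashtags on barcodes with at least 500 genes and at most 20% mitochondrial UMIs. Barcodes with several hashtags stayed out of the sums; no doublet caller was run, so doublets within an animal remain. Counts were summed per hashtag and class: members, capillary-rule barcodes, smooth muscle (at least 3% Acta2, Tagln and Myh11) and fibroblasts (at least 5 UMIs of Dcn, Lum and Pdgfra), the last 2 with 0 UMIs of Pecam1, Cdh5 and Eng. The sums were tested in edgeR 4.0.16 (default glmQLFit, glmQLFTest, 6 residual degrees of freedom, TMM, filterByExpr) with the hashtag as a block, since a hashtag is 1 animal (same-hashtag deviations correlated at 0.018, 0.003 and -0.011). The robust form of glmQLFit was run first and is an alternative, as is DESeq2 1.42.0. Genes named by size were the 12 with the largest change in each direction among called genes outside the rule, with 1 direction in all 3 animals and at least 30 UMIs in the higher class; some of them are not reported here. The call threshold was an adjusted p of 0.05 (Benjamini-Hochberg). SEs of log2 fold changes were derived from the test statistic. CPM of single genes are TMM-scaled; list sums and CPM over all barcodes of a class are not. A fold against 0 UMIs uses a floor of 3 UMIs over the class, and intervals cover counting error only.

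Strict members, members without Prox1 and members without a UMI of 6 fibroblast genes (Lum, Pdgfra, Pi16, Clec3b, Dpt, Serpinf1) were chosen after seeing the data, the first after exploratory clustering, as were the promoters and single-barcode counts. On simulated counts of 6371 genes, 29 of 100 changed by a fold of 2 and 83 of 100 changed by a fold of 4 were recovered, with 4 unchanged genes called. The simulated spread was set wider than the one fitted to the data (common biological coefficient of variation 0.0996). It held no animal effect, and only genes above a minimum expected count were changed. These counts check the procedure and do not give the recovery or false calls in the data.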

Additional observations from a re-analysis of the deposited data

How the results depend on the processing

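Of the 24 genes named by size, 23 kept their call in every one of the 22 alternatives in which they were tested, the exception being Nrg1 under DESeq2 (adjusted p = 0.218). Of the list genes called, 91 of 151 did so. The counts of genes higher and lower were 869 and 829, and 718 and 614 by DESeq2, 889 and 831 with no replicate block, 890 and 846 with the robust spread estimate and 782 and 812 with strict members; leaving out each replicate gave 603 to 786 and 553 to 719. They moved by more than 1.5 times when every barcode took its highest hashtag (1344 and 1283), with a hashtag share of 60% (555 and 543), with HTODemux on the stricter cell set (447 and 446) and with at most 10% mitochondrial UMIs (433 and 419). The higher count also did so after thinning to 2000 UMIs (525) and in members without a UMI of 6 fibroblast genes (405). These last settings tested fewer genes or kept fewer barcodes, except that the highest-hashtag setting kept more. The number of members was 60 at no more than 10% mitochondrial UMIs and 309 with a smooth muscle limit of 2%; those with 1 hashtag numbered 153 by the highest hashtag and 38 on the stricter set. Egfl7 turned to 0.34 (adjusted p = 0.0379) when the capillary rule had no smooth muscle limit. Stmn1 ranged from -0.57 to 2.03 with each replicate left out, and was -0.29 without barcodes with lymphatic markers, -0.25 without Prox1 and -0.31 in members without UMIs of those fibroblast genes. Hbb-bt ranged from -0.50 to 1.71 with each replicate left out, and was -0.25 on the stricter cell set and -0.75 in members without UMIs of those fibroblast genes. The cause was not tested. Over all alternatives, 7 to 9 of 9 large-vessel genes and 3 to 7 haemostasis genes were higher, and 12 to 13 capillary genes lower. Depth limits genes with few UMIs, since the smallest member sum held 144356.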

Other observations

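A single barcode gave most of the UMIs of some genes in the members. In hashtag 2, 1 barcode held 13 of 13 Mki67 and 19 of 19 Top2a UMIs, both genes of dividing cells, and 49 of 56 UMIs of Stmn1, a microtubule regulator. No member of hashtags 1 or 3 with a single hashtag had a UMI of Mki67 or Top2a. In hashtag 3, 1 barcode held 134 of 145 UMIs of Hbb-bt, a beta globin. Stmn1 and Hbb-bt were called higher in members with all 3 animals and lay in the other direction, uncalled, without hashtag 2 and without hashtag 3 respectively.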
